A study of Mus musculus with 7 samples.

Results

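Aggrecan (Acan) and 8 further genes for noncollagenous proteins of the cartilage matrix, Hapln1, Comp, Matn1, Matn3, Matn4, Chad, Lect1 (also written Cnmd) and Prg4, were examined as a list of 9 among 21172 protein-coding genes that could be placed in both genome builds used. They were chosen by name, as a list of related matrix genes, with earlier results of these data known. The study of these data had already described chondrocyte-specific peaks at Acan that were low in fibroblasts. For each gene, peaks were collected up to 1 kb from the transcription start site (TSS), in the gene body and within 50 kb on either side of the gene.

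ChIP-Seq had been performed in a search for enhancers of Sox9, which encodes the master regulator of cartilage formation, and peak lists were analyzed for 6 of 7 samples. Primary chondrocytes from the rib cartilage of newborn mice gave 2 libraries for H3K27ac and 1 for H3K4me2. Primary dermal fibroblasts from the dorsal skin of newborn mice had 1 H3K27ac library. Rib chondrocytes of wild-type (WT) mice and of E160Δ/Δ E308Δ/Δ mice had 1 H3K27ac library each. The E160Δ/Δ E308Δ/Δ mice lack the Sox9 enhancers E160 and E308 on both alleles, and were made by CRISPR/Cas9 editing of C57BL/6J embryos in successive steps and bred through heterozygotes. The strain and genotype of the mice behind the replicate libraries and the fibroblasts are not given in the sources used here. All cells were cultured, and the chondrocytes had been released from rib cartilage by collagenase. The remaining sample, an input library, was not analyzed here.

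H3K27ac, an acetylation of histone H3, marks active promoters and enhancers, whereas H3K4me2, a methylation of the same histone, is also present where such elements are not active. Aggrecan is the large proteoglycan that lets cartilage hold water, and it is anchored to hyaluronan by the link protein encoded by Hapln1. Comp, the matrilins and chondroadherin are glycoproteins that connect collagen fibrils, proteoglycans and cells, Lect1 encodes chondromodulin, a protein of avascular cartilage that inhibits blood vessel growth, and Prg4 encodes lubricin, made mainly by cells at the joint surface. Acan, Hapln1, Matn1 and other members are known targets of Sox9 and its partners Sox5 and Sox6.

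Acan, Hapln1, Comp, Matn3 and Lect1 (5 of 9) had a promoter peak in every chondrocyte list, that is in both H3K27ac replicates, in WT, for H3K4me2 and in E160Δ/Δ E308Δ/Δ, and none in fibroblasts. Matn4, Prg4 and Chad carried H3K4me2 at the promoter, with H3K27ac only at Chad and only in replicate 1. The Matn1 promoter held no peak in any of the 6 lists. A promoter counted as marked if any part of a peak was 1 kb or less from the TSS, and the position of a peak is given in kb from the TSS in the direction of transcription. The rank of a peak is the share of its list that scores at least as high, so that a low percentage is a strong peak.

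**Figure D1:**
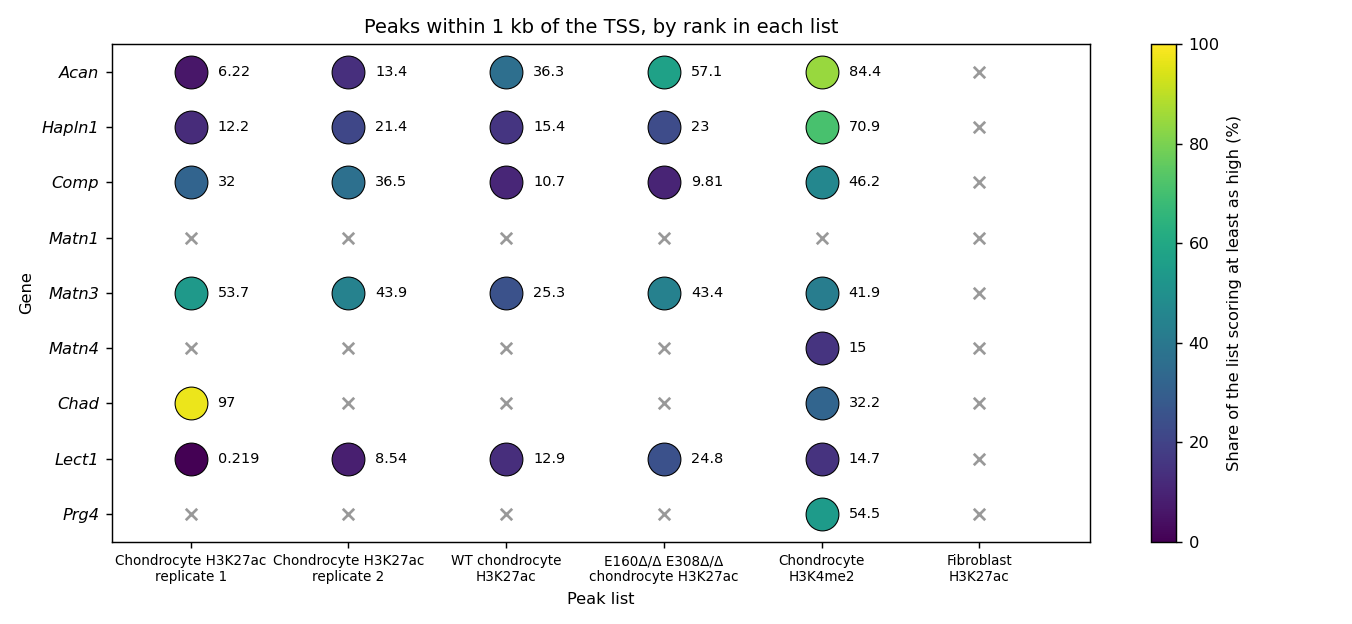
Promoter peaks of the 9 genes (vertical axis) in the 6 peak lists (horizontal axis), where circles stand for a peak within 1 kb of the TSS and crosses for none. The number beside a circle and its color give the percentage of the list scoring at least as high. Acan, Hapln1, Comp, Matn3 and Lect1 have circles in all 5 chondrocyte columns, and the fibroblast column holds crosses alone.

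Sequences of 3 promoters are shown because they differ in CG content and in marking. They run from 250 bases before to 50 bases after the start in RefSeq on GRCm38.p6, 5′ to 3′ on the strand of the gene, with every CG pair in capitals. Acan (chr7:79052976-79053275, plus strand) was marked and rich in CG, Lect1 (chr14:79662134-79662433, minus strand) was marked and nearly without CG, and Matn1 (chr4:130944135-130944434, plus strand) was unmarked.
Acan: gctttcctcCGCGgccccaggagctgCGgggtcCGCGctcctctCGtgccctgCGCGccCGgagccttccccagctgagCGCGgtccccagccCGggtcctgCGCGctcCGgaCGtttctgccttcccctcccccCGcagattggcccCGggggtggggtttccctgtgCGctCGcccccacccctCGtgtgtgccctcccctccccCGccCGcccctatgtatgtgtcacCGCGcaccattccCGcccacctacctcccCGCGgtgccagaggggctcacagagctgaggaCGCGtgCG
Lect1: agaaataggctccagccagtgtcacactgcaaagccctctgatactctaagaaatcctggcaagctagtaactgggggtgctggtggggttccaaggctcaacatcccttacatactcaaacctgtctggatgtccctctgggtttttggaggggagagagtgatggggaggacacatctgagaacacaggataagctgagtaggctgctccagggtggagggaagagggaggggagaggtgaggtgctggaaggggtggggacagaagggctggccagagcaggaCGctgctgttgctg
Matn1: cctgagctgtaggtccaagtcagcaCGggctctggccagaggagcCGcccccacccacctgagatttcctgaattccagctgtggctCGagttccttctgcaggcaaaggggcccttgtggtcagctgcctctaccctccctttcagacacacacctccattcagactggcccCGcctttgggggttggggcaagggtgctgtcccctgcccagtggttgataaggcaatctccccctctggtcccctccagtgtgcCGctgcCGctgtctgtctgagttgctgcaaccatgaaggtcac

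The Acan window held 31 CG pairs, the Lect1 window 1 and the Matn1 window 6. Over all 32619 RefSeq promoter windows of the same length the median was 7 pairs, from 0 to 37.0 between the 5th and 95th percentiles, so Acan lay in the upper part of the range and Lect1 near its bottom. Hapln1, also marked, held 3 pairs and Matn3 held 15. Of the promoters without H3K27ac in most lists, Chad held 13 pairs and Matn4 held 9 and 19 in its 2 annotated windows. Marked and unmarked members therefore overlapped in CG number. The letters ACAAAG or ACAATG on either strand, the core to which Sox9 and related factors bind, were in 28.3% of all windows and in 0 of the 8 windows of these members. TATAAA on either strand was in 13.7% of all windows and in that of Chad alone among the 8 windows. No window of Comp or Prg4 was in the table used.

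The lists held 19454 to 66355 peaks on chromosomes 1 to 19 and X, and library depth is unknown because they give no read numbers. Replicate 2 was in GRCm38 coordinates and the other lists in mm9, so each replicate 2 peak was placed relative to the GRCm38 start of its gene. Scores rank peaks only within a list, and the lists differ in length and lowest score, so a difference in rank between lists is not a difference in the mark. Before the members were compared, the lists were checked against marker genes. WT, E160Δ/Δ E308Δ/Δ and replicate 2 marked the promoters of 6 of 7 chondrocyte markers each, whereas replicate 1 marked 3 of 7 and lacked Sox9 and Col2a1. H3K4me2 marked 5 of 7 and lacked Sox6 and Col2a1, so an absent H3K4me2 peak is to be read with that limit. The fibroblast list marked 3 of 8 fibroblast markers (Dcn, Lum and Twist2) and lacked Col1a1, Col1a2, Col3a1, Postn and Prrx1, and it marked 1 of 7 chondrocyte markers, Sox9. In replicate 1, replicate 2, WT and E160Δ/Δ E308Δ/Δ chondrocytes, 5, 7, 8 and 8 of the 8 fibroblast markers were marked, and Col1a1 ranked in the top 4.48% in WT. Of markers of keratinocytes, endothelium, leukocytes, muscle and osteoblasts, 0 of 7 was marked in the fibroblast list and 1, Sp7 of osteoblasts, in H3K4me2 and WT. The fibroblast list thus misses promoters that define its labelled cell type, and the absence of a fibroblast peak at a member is to be read with that limit. The study itself describes peaks at Col1a1 in fibroblasts, which the fibroblast list lacks at the promoter. It also describes peaks at Col2a1 and Sox9 in chondrocytes, without naming the replicate. The part of these marker values in the results was not tested.

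Replicate 1 marked the promoters of 6 of the 9 members, beside 42.6% of all 21172 protein-coding promoters. Replicate 2 marked 5 of 9 beside 41.4%, WT marked 5 of 9 beside 48.3%, and E160Δ/Δ E308Δ/Δ marked 5 of 9 beside 45.5%. H3K4me2 marked 8 of 9 beside 64.0%. The fibroblast list marked 0 of 9 beside 45.8%. Counted over both replicates, 5 of 9 members were marked in chondrocytes and not in fibroblasts, where 1.64% of all promoters were. With WT and E160Δ/Δ E308Δ/Δ also required, the count stayed at the same 5 members beside 1.41%. Without any use of the fibroblast list, the same 5 of 9 were marked in all 4 chondrocyte H3K27ac lists beside 36.5% of all promoters. The members stood further from the background where the fibroblast list was used. By the same count over both replicates, 3 of 7 chondrocyte markers (Col9a1, Col9a2 and Col11a2) and 3 of 8 fibroblast markers (Col1a1, Col1a2 and Col3a1) were marked in chondrocytes and not in fibroblasts. Chondrocyte H3K27ac had 2 replicate libraries and every other group 1, so no p-value is given, and a weaker mark in every cell and a mark in fewer cells cannot be told apart.

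The fibroblast list held no peak within 5 kb of any of the 9 TSSs and none in any of the 9 gene bodies. The share of all genes without a fibroblast peak in these stretches was not computed. The nearest fibroblast peak to a TSS was 15.5 kb away at Chad, 18.8 kb at Matn4, 19.7 kb at Comp and 23.8 kb at Matn3. It was 72.0 kb away at Prg4, 74.0 kb at Lect1, 95 kb at Acan, 151 kb at Matn1 and 198 kb at Hapln1. For the fibroblast markers without a promoter peak the distance was 1.69 kb at Postn, 13.7 kb at Col1a2, 14.1 kb at Col3a1, 21.2 kb at Col1a1 and 32.4 kb at Prrx1, so the ranges overlapped. In 8 of the 9 cases the nearest peak lay at the promoter of another gene. Examples are Mfge8 downstream of Acan and Vcan, which encodes versican, downstream of Hapln1. The exception was Matn4, whose nearest peak lay in an intron of Slpi and ranked in the top 93.6%. The same count over all genes was not made. Over the whole fibroblast list, 10153 of 19454 peaks were not within 1 kb of a protein-coding TSS. Among all promoters with a WT peak of 3 to 5 kb, the width seen at Hapln1, Comp and Lect1, 94.5% had a promoter peak in fibroblasts, and among those with a WT peak of 1 to 3 kb, the width seen at Matn3, 95.8% did. Under 1 kb, the width of the highest WT promoter peak at Acan, it was 78.7%, and at 5 kb and over it was 81.0%. The WT peak across the Acan TSS was 4060 bp wide. Fibroblast markers without a fibroblast promoter peak also had wide WT peaks. These measured 3102 bp at Postn, 5779 bp at Col3a1, 9178 bp at Col1a2, 10814 bp at Prrx1 and 19419 bp at Col1a1. Whether a missing fibroblast peak at a member is a gap in the list was not tested.

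Acan (ENSMUSG00000030607.6) lies on chromosome 7 from 86198369 to 86259985 in mm9, plus strand. Its promoter peak in replicate 1 ran from −0.294 to 4.15 kb, into the first part of the gene body, and ranked in the top 6.22%. In replicate 2 it ran from −0.639 to 4.38 kb and ranked in the top 13.4%, with a fold enrichment of 14.8 over the local background. The H3K4me2 peak covered almost the same stretch, from −0.294 to 5.16 kb, but was weak in its list, in the top 84.4%. WT had a peak from −0.981 to −0.375 kb in the top 36.3% and a second from −0.178 to 3.88 kb in the top 39.4%. In E160Δ/Δ E308Δ/Δ the highest promoter peak ran from −0.175 to 2.37 kb, in the top 57.1%. By presence in the 6 lists, 277 protein-coding genes shared its pattern, counting Acan itself and the fibroblast markers Col1a2 and Col1a1, and those with the lowest mean rank were Tmem88 (9.91%), Tox (12.1%), Lect1 (12.2%), Sh3tc2 (15.3%) and Tmc8 (16.5%), with Acan itself at a mean of 39.5%, in position 140.

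Outside its promoter, Acan had 3 sites with H3K27ac in replicate 1, replicate 2 and WT, and none of them had a fibroblast peak. The site centered at −9.88 kb, between genes, ranked in the top 15.3% of replicate 1, 32.0% of replicate 2 and 57.3% of WT, with H3K4me2 in the top 38.7%. It held no peak in E160Δ/Δ E308Δ/Δ. The site at −31.4 kb, also intergenic, ranked in the top 24.4% of replicate 1, 28.8% of replicate 2, 89.3% of WT and 89.3% of E160Δ/Δ E308Δ/Δ, without H3K4me2. An intronic site at 26.6 kb ranked in the top 44.1%, 73.1% and 73.0% of replicate 1, replicate 2 and WT, with H3K4me2 in the top 72.4%, and was again without a peak in E160Δ/Δ E308Δ/Δ. A further site at −26.9 kb was in replicate 1, in the top 96.1%, and in H3K4me2, in the top 35.8%. No H3K27ac peak lay between 27.7 kb and the end of the gene.

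Hapln1 (ENSMUSG00000021613.8) lies on chromosome 13 from 89680241 to 89751437 in mm9, plus strand. Its promoter peak was 6165 bp wide in replicate 1, 4133 bp in replicate 2, 4446 bp in WT and 2941 bp in E160Δ/Δ E308Δ/Δ. It ranked in the top 12.2%, 21.4%, 15.4% and 23.0% of these lists. H3K4me2 had a peak from −2.16 to −0.580 kb, in the top 70.9%, and one across the TSS from −0.522 to 3.36 kb, in the top 75.5%. The only distal site found in replicate 1, replicate 2 and WT was at −18.8 kb, between genes. It ranked in the top 8.66% of replicate 1, above the promoter itself, in the top 57.0% of replicate 2, 33.3% of WT, 49.0% of E160Δ/Δ E308Δ/Δ and 22.1% for H3K4me2. Intronic sites at 43.9 and 60 kb were in replicate 1, in the top 84.2% and 83.4%, and in H3K4me2, and in no other list.

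**Figure D2:**
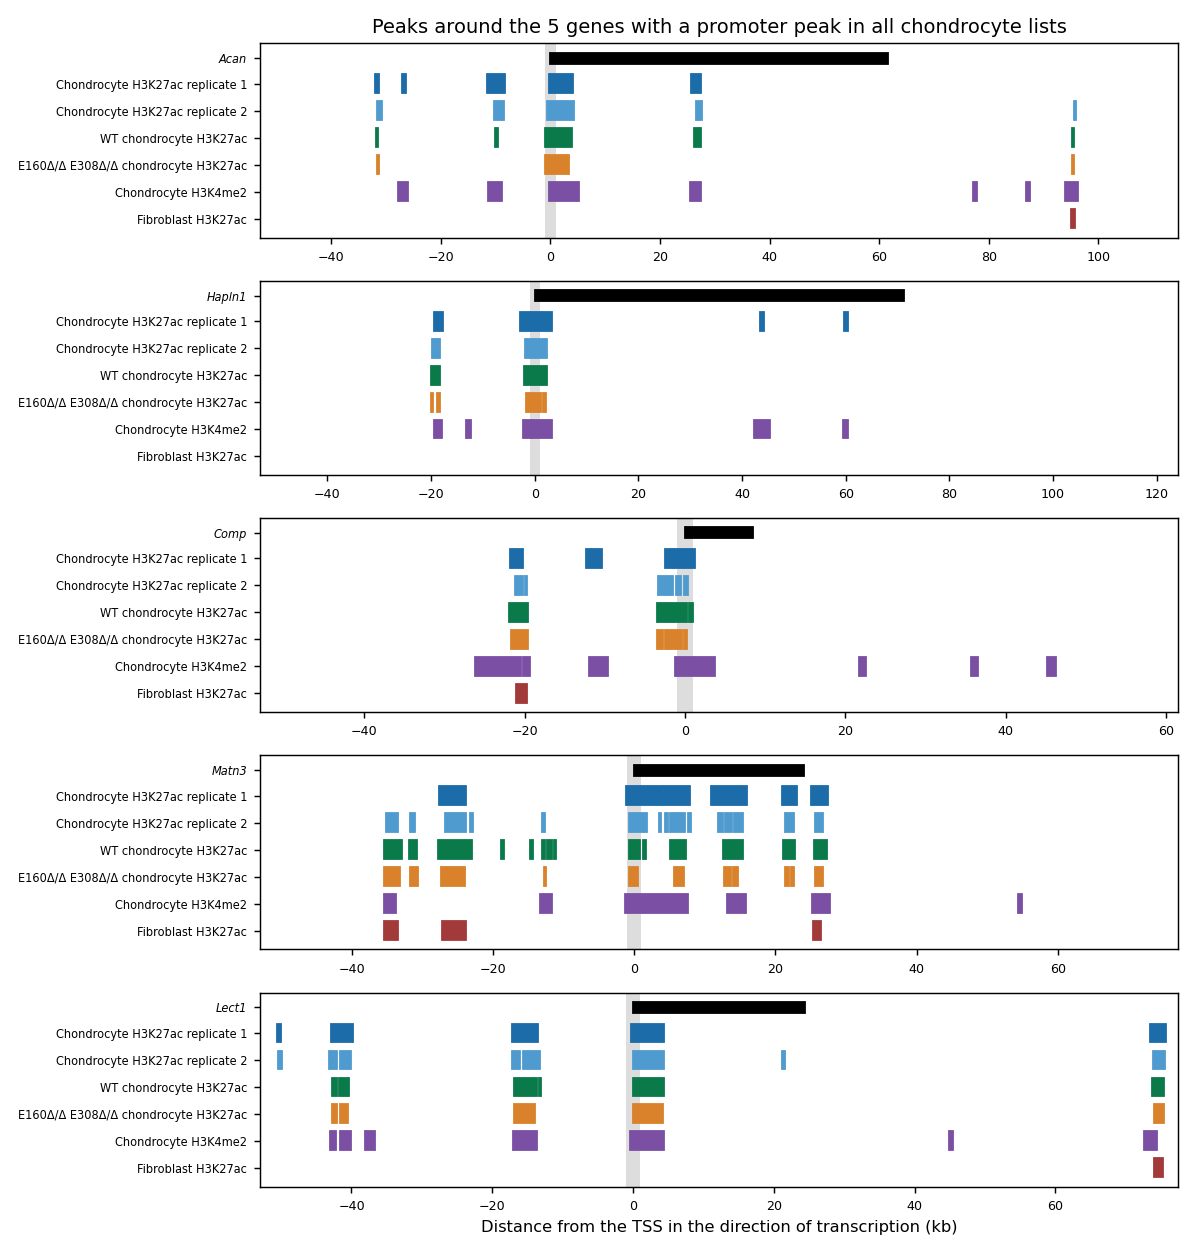
Peaks around the 5 genes marked in all chondrocyte lists, by distance from the TSS in kb (horizontal axis) and by list (rows), with the gene as a black bar and the 1 kb on either side of the TSS in gray. Colored bars stand for single peaks. The fibroblast row is empty from the TSS through the gene body of each gene, and the fibroblast peaks drawn lie at promoters of other genes or, for Matn3, also at an intergenic site near −34.4 kb.

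Comp (ENSMUSG00000031849.7), which encodes cartilage oligomeric matrix protein, lies on chromosome 8 from 72897447 to 72905964 in mm9, plus strand. Its promoter ranked in the top 10.7% of WT and 9.81% of E160Δ/Δ E308Δ/Δ, the highest of the members in these lists, and in the top 32.0% and 36.5% of replicates 1 and 2. H3K4me2 ranked in the top 46.2% and ran from −1.30 to 3.78 kb, whereas the WT H3K27ac peak ran from −3.45 to 0.303 kb, mostly upstream of the TSS. A smaller WT peak from 0.485 to 1.02 kb, in the top 65.3%, had no partner in E160Δ/Δ E308Δ/Δ. No distal site was in replicate 1, replicate 2 and WT together. The site at −11.0 kb was in replicate 1, in the top 28.5%, and in H3K4me2, in the top 63.2%, but not in replicate 2 or WT. The peaks near −20.7 kb, present in all 6 lists, lay at the promoter of Upf1.

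The matrilins differed in which lists marked their promoters. Matn2, in the list of related genes, was marked in fibroblasts, in the top 40.5%, and in replicate 2, WT, E160Δ/Δ E308Δ/Δ and H3K4me2, but not in replicate 1. Matn3 (ENSMUSG00000020583.4, chromosome 12 from 8954735 to 8978834 in mm9, plus strand) ranked in the top 53.7%, 43.9%, 25.3% and 43.4% of replicate 1, replicate 2, WT and E160Δ/Δ E308Δ/Δ at its promoter, and in the top 41.9% for H3K4me2. Sites at 6.19, 13.4 and 22.0 kb, all in introns of Matn3, were in replicate 1, replicate 2, WT and E160Δ/Δ E308Δ/Δ and not in fibroblasts. The site at 13.4 kb ranked above the promoter in each of these lists, in the top 14.2%, 19.8%, 20.5% and 31.7%. The site at 22.0 kb ranked in the top 52.7%, 44.4%, 39.8% and 56.6% and had no H3K4me2. A strong site near −34.2 kb, in the top 7.08% of WT, was shared with fibroblasts, in the top 27.7%, and was not in replicate 1.

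Matn1 (ENSMUSG00000040533.7, chromosome 4 from 130500300 to 130511390 in mm9, plus strand) had no peak in replicate 2, WT, E160Δ/Δ E308Δ/Δ or fibroblasts anywhere within 50 kb. Replicate 1 held 3 peaks, of which the nearest to the TSS was 300 bp wide at −1.79 kb, in the top 91.4%, and the strongest was at −44.4 kb, in the top 43.3%, where H3K4me2 also had a peak. Matn4 (ENSMUSG00000016995.10, chromosome 2 from 164215129 to 164230660 in mm9, minus strand) carried H3K4me2 from −0.353 to 2.38 kb, in the top 15%, the strongest promoter rank for this mark among the members beside that of Lect1, at 14.7%. The same stretch lies near the start of Rbpjl, a gene that overlaps Matn4, so the H3K4me2 peak cannot be assigned to either. H3K27ac there was 1 weak peak of replicate 1 from 1.20 to 1.65 kb, in the top 82.2%, beyond the 1 kb limit. Upstream, an intergenic site at −44.2 kb was in both replicates, WT and E160Δ/Δ E308Δ/Δ, in the top 13.2%, 30.3%, 50.5% and 56.3%, and not in fibroblasts. A site at −27.6 kb in an intron of Sdc4, which encodes syndecan-4, ranked in the top 35.1% of replicate 1, 12.4% of WT and 32.6% of the fibroblast list.

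Chad (ENSMUSG00000039084.8, chromosome 11 from 94426361 to 94430441 in mm9, plus strand) lies within an intron of Acsf2. Its promoter carried a wide H3K4me2 peak from −2.56 to 2.51 kb, in the top 32.2%, and in replicate 1 a 581 bp H3K27ac peak from −1.02 to −0.444 kb, in the top 97.0%. Replicate 2, WT and E160Δ/Δ E308Δ/Δ held no peak there, so the acetylation at Chad was not seen in a second library. A site at −21.2 kb in an intron of Rsad1 was in both replicates, in the top 70.0% and 91.3%, in WT, in the top 29.6%, and in E160Δ/Δ E308Δ/Δ, in the top 45.4%, and not in fibroblasts. Stronger peaks near −15.5 kb, present in all 6 lists, lay at or near the promoter of Rsad1.

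**Figure D3:**
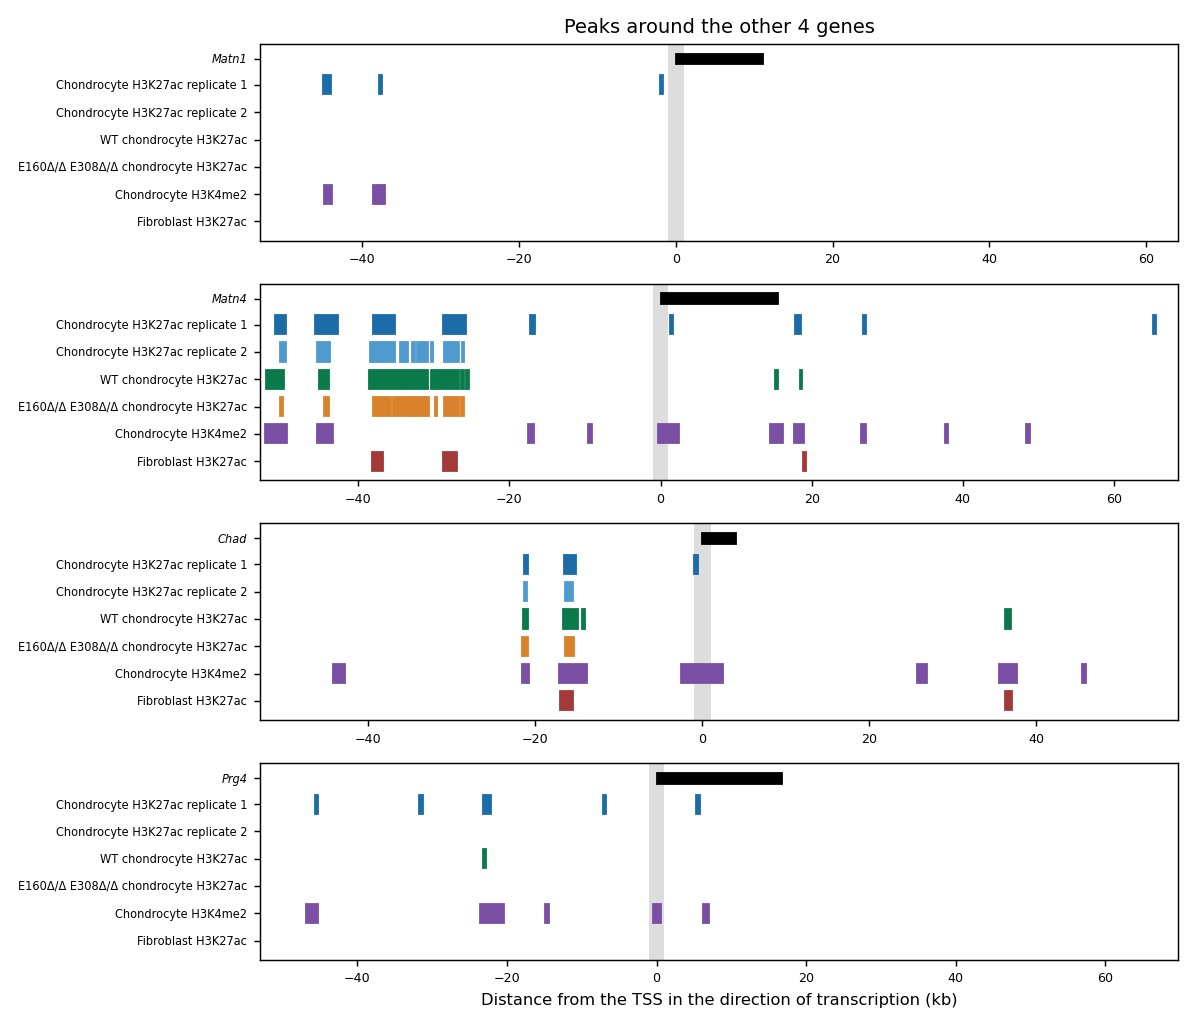
Peaks around Matn1, Matn4, Chad and Prg4, drawn by distance from the TSS in kb (horizontal axis) and by list (rows), with the gene as a black bar and the 1 kb on either side of the TSS in gray. H3K4me2 covers the TSS of Matn4, Chad and Prg4 where the replicate 2, WT and E160Δ/Δ E308Δ/Δ rows are empty, and the Matn1 window holds peaks of replicate 1 and H3K4me2 alone.

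Lect1 (ENSMUSG00000022025.7, chromosome 14 from 80037497 to 80061977 in mm9, minus strand) had the strongest promoter rank of the members in both replicates, in the top 0.219% and 8.54%. It ranked in the top 12.9% of WT, 24.8% of E160Δ/Δ E308Δ/Δ and 14.7% of H3K4me2. The peak ran from the TSS into the gene, from −0.229 to 4.36 kb in replicate 1 and from 0.00100 to 4.44 kb in WT, with a WT fold enrichment of 25. Sites at −15.2 and −41.5 kb, between genes, were in all 4 chondrocyte H3K27ac lists and H3K4me2 and not in fibroblasts. The site at −15.2 kb ranked in the top 5.58% of replicate 1, 20.4% of replicate 2, 16.6% of WT and 20.7% of E160Δ/Δ E308Δ/Δ. Prg4 (ENSMUSG00000006014.9, chromosome 1 from 152296542 to 152313295 in mm9, minus strand) shared with Lect1 the H3K4me2 at the promoter and the lack of a fibroblast peak there. Its H3K4me2 ran from −0.477 to 0.558 kb, in the top 54.5%, and, unlike at Lect1, its promoter had no H3K27ac. Within 50 kb, replicate 1 had 5 peaks, the strongest at −22.7 kb in the top 56.0%, WT had 1 at the same site in the top 89.8%, and replicate 2 and E160Δ/Δ E308Δ/Δ had none.

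H3K4me2 without H3K27ac in any chondrocyte list was seen at 2 of 9 members, Matn4 and Prg4, and at 15.4% of all promoters. Peaks within 5 kb of the TSS covered 4443 to 5295 bp for Acan over replicate 1, replicate 2, H3K4me2 and WT, and 3994 bp in E160Δ/Δ E308Δ/Δ. For Chad the covered length was 5076 bp in H3K4me2 and 581 bp in replicate 1, and for Prg4 it was 1036 bp in H3K4me2 and 0 in the H3K27ac lists.

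Around the 9 genes, replicate 1 held 44 peaks and 37 of them (84.1%; 95% CI, 69.9–93.4, exact Clopper-Pearson) had no fibroblast peak, beside 48.3% of the whole list. Of the 30 that were distal, that is not at any promoter, 29 (96.7%; 95% CI, 82.8–99.9) had none, beside 70.7% of all distal peaks of replicate 1. The exception was in the Sdc4 intron upstream of Matn4. Of the 8 replicate 1 peaks at promoters of neighboring genes, 2 were free of a fibroblast peak, beside 11.5% of all promoter peaks of replicate 1. In the other direction, 4 of the 11 fibroblast peaks (36.4%; 95% CI, 10.9–69.2) had no replicate 1 peak, beside 37.6% of that list. Of those 11 peaks, 8 lay at the promoters of Mfge8, Upf1, Laptm4a, Wdr35, Sdc4, Rsad1, Acsf2 and Sugt1. These intervals cover only the counting error of peaks taken as independent.

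H3K4me2 peaks overlapped a smaller share of replicate 1 peaks here than over the whole list. Of the 44 replicate 1 peaks, 32 (72.7%; 95% CI, 57.2–85.0) overlapped an H3K4me2 peak, beside 90.2% of the list, and of the 30 distal peaks 20 did (66.7%; 95% CI, 47.2–82.7), beside 86.6%. All 6 replicate 1 peaks at member promoters had H3K4me2, beside 96.1% of all promoter peaks of replicate 1. The H3K4me2 list marked 98.9% of promoters with a WT peak of 1 to 3 kb. It marked 92.7% at 3 to 5 kb and 73.4% at 5 kb and over. The peaks counted without H3K4me2 include those at the promoters of Laptm4a and Sdc4, in the top 0.555% and 6.67% of replicate 1. The part of such gaps in the lower share was not tested. Merged over lists by distance from the TSS, the windows held 55 distal sites, of which 17 were in H3K4me2 alone and 14 were in replicate 1 but in no other chondrocyte H3K27ac list. In replicate 1, replicate 2 and WT together there were 12 distal sites, 3 each at Acan and Matn3, 2 each at Matn4 and Lect1, and 1 each at Hapln1 and Chad. Of these 12, 11 were not in fibroblasts, 9 had H3K4me2 and 10 were in E160Δ/Δ E308Δ/Δ. Both sites missing from E160Δ/Δ E308Δ/Δ were at Acan. Sites were merged in the windows of the members alone, so these site counts have no share over all distal sites beside them.

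Sequences of 300 bases around the WT summit are shown for 4 of these sites and for the Lect1 promoter peak, because these stretches were acetylated in both replicates and WT and not in fibroblasts, and because they include windows with and without a SOX core. They are from mm9, 5′ to 3′ on the plus strand, with ACAAAG or ACAATG on either strand in capitals, so that a match on the minus strand reads CTTTGT or CATTGT. Those at Acan −9.90 kb (chr7:86188320-86188619), Hapln1 −18.6 kb (chr13:89661530-89661829) and Lect1 −15.2 kb (chr14:80077063-80077362) held no match, and those at Matn3 22.3 kb (chr12:8976932-8977231) and Lect1 1.11 kb (chr14:80060713-80061012) held 1 each.
Acan −9.90 kb: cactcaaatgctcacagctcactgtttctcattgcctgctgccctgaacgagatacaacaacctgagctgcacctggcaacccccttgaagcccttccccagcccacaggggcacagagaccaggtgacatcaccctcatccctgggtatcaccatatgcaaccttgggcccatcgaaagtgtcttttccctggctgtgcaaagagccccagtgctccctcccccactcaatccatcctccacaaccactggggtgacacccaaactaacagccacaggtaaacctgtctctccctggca
Hapln1 −18.6 kb: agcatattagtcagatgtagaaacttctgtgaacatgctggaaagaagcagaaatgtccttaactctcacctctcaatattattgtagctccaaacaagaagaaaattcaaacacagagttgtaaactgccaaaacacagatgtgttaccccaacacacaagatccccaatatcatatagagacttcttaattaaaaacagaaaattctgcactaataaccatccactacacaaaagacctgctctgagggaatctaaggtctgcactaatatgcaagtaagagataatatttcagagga
Lect1 −15.2 kb: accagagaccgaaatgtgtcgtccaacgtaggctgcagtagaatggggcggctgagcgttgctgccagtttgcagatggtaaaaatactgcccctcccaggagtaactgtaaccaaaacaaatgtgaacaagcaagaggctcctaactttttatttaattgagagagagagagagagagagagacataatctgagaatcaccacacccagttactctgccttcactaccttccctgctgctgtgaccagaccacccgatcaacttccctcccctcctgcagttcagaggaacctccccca
Matn3 22.3 kb: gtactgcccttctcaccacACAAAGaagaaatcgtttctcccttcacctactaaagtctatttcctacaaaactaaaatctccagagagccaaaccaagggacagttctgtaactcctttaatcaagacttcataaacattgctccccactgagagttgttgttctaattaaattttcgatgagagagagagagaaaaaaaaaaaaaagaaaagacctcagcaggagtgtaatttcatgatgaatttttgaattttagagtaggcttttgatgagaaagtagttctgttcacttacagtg
Lect1 1.11 kb: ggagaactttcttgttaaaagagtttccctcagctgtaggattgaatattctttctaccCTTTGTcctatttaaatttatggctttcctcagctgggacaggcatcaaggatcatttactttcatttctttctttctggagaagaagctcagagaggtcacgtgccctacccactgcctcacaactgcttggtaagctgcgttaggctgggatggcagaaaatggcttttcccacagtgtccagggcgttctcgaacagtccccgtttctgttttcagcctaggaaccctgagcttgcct

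Around the members, 7 of 30 distal WT summit windows (23.3%) held such a match, and 34.5% of all distal WT summit windows did. Over the whole Lect1 promoter peak of 4439 bp there were 7 matches. Over the WT peak of 3247 bp at −15.2 kb there were 4, so a summit window without a match can lie in a peak that holds several. The mean number of matches was 0.427 per window over all distal WT summits and 0.267 over those around the members. Longer stretches hold more matches by length alone, and whether these 2 peaks held more than their length gives was not tested. A match is a set of letters and not evidence of binding.

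WT and E160Δ/Δ E308Δ/Δ were compared to ask how the members behaved when Sox9 enhancers were missing. All 5 member promoters marked in WT were marked in E160Δ/Δ E308Δ/Δ, as were 9635 of the 10232 promoters marked in WT over all genes. The score of the highest promoter peak in WT was 242, against 101 in E160Δ/Δ E308Δ/Δ, at Acan, 784 and 389 at Hapln1, 1032 and 770 at Comp, 434 and 160 at Matn3, and 905 and 360 at Lect1. The ratio of the E160Δ/Δ E308Δ/Δ to the WT score was 0.369 at Matn3, 0.398 at Lect1, 0.417 at Acan, 0.496 at Hapln1 and 0.746 at Comp. Most promoters scored lower in E160Δ/Δ E308Δ/Δ, with a median ratio of 0.579 over 9635 promoters. The 5th to 95th percentile range was 0.340–0.785, and all 5 members lay within it. Each genotype had 1 library of unknown depth, so a difference in depth and one in the mark cannot be told apart. Among chondrocyte markers with a peak in both lists, the score ratio was 0.684 at Col9a2, 0.618 at Sox9 and 0.540 at Col9a1. It was 0.520 at Col2a1, 0.449 at Col11a2 and 0.419 at Sox6. A ratio under 0.5 was seen at 4 of 5 members and at 28.4% of the promoters. At Acan the highest peaks of the 2 lists did not overlap, and between overlapping peaks the ratio was 0.335 for the upstream peak and 0.481 for the one across the TSS. By fold enrichment over the local background the ratio was 0.532 at Lect1, 0.560 at Matn3 and 0.563 at Hapln1. It was 0.708 at Acan and 0.977 at Comp, beside a median of 0.692. Acan was below the median by score. Its fold ratio of 0.708 again sets peaks that do not overlap against each other, so it does not place Acan above the median. Between overlapping Acan peaks, fold enrichment upstream was 7.54 for the WT peak and 4.34 for its E160Δ/Δ E308Δ/Δ partner. Across the TSS these values were 8.58 and 5.34. By fold enrichment the 5th to 95th percentile range was 0.499–0.927, and Comp lay above it. Comp was above the median by both measures, and Matn3, Lect1 and Hapln1 below it by both.

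**Figure D4:**
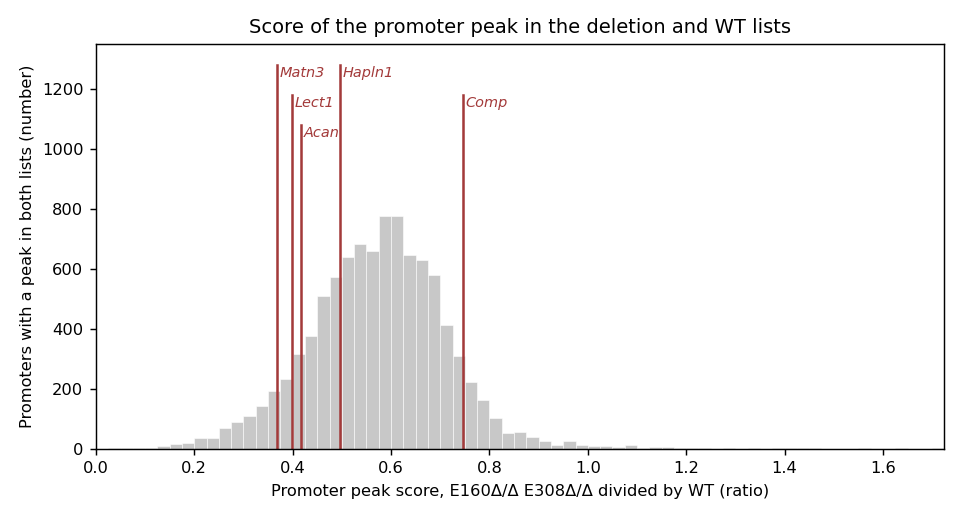
Score of the promoter peak in E160Δ/Δ E308Δ/Δ divided by that in WT (horizontal axis, ratio) for 9635 promoters with a peak in both lists (vertical axis, number of promoters). Red lines mark the 5 members, of which Matn3, Lect1, Acan and Hapln1 lie between 0.369 and 0.496, left of the median of 0.579, and Comp lies at 0.746, right of it.

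Of the 47 WT peaks around the members, 17 (36.2%; 95% CI, 22.7–51.5) had no partner in E160Δ/Δ E308Δ/Δ, beside 37.2% of the list, and of the 30 distal ones 14 (46.7%; 95% CI, 28.3–65.7), beside 49.1%. The members' windows as a whole therefore did not stand apart from the list. Partners were missing most often for weak peaks, with 36.4% of all WT peaks without one in the top 50 to 60% of the list and 78.4% in the top 70 to 80%, the classes that hold the Acan sites at −9.88 kb and 26.6 kb. For the WT peaks in the top 10 to 20%, which hold the Lect1 promoter and the site at −15.2 kb, it was 0.0299%.

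A further list of 24 related genes, of hyaluronan-binding proteoglycans and link proteins, thrombospondins and small cartilage proteins, was counted in the same way. Their promoters were marked in 9 of 24 cases in replicate 1, 10 in replicate 2, 11 in WT, 10 in E160Δ/Δ E308Δ/Δ, 19 for H3K4me2 and 7 in fibroblasts. Over all promoters the shares in the same order were 42.6%, 41.4%, 48.3%, 45.5%, 64.0% and 45.8%. Those marked in fibroblasts were Vcan, Matn2, Thbs1, Thbs2, Thbs3, Has2 and Cd44. Ucma, Mia1, Scrg1 and 3110079O15Rik (Snorc) encode small proteins made by chondrocytes. These 4 of 24 were marked in both replicates and not in fibroblasts, beside 1.64% of all promoters. They ranked in the top 34.7%, 29.4%, 12.2% and 13.1% of replicate 1. Ucma, Mia1 and Scrg1 were also marked in WT and E160Δ/Δ E308Δ/Δ, whereas 3110079O15Rik was in neither. H3K4me2 without chondrocyte H3K27ac within 1 kb of the TSS, as at Matn4 and Prg4, was seen at 15.4% of all promoters. Among the related genes it was seen at Bcan, Hapln3, Hapln4, Thbs4, Cilp2, Crtac1, Cytl1 and Vit.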

How the data were processed

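ChIP-Seq peak lists of 6 samples were taken in the form in which the authors deposited them. By the submitters' processing notes and the study's methods, the authors cleaned reads with fastp and mapped them to mm9 with Bowtie2 2.4.4, and peaks were called per library with MACS2 2.2.4 with input reads as control. Replicate 1, H3K4me2 and fibroblast lists hold only the authors' score (lowest 50.0), in a format of other MACS versions. Replicate 2, WT and E160Δ/Δ E308Δ/Δ lists are narrowPeak files with a deposited score, the fold enrichment and the −log10 q (lowest 1.33, 2.05 and 2.01). Replicate 2 marked 41.4% of promoters with GRCm38 positions and 6.14% with mm9 positions. No coordinate was converted.

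TSSs came from GENCODE vM1 (22350 protein-coding genes) and RefSeq, matched by symbol (2207 by an older symbol), which left 21172 genes. An overlap of 1 bp counted as shared. The members, related genes and markers were chosen with earlier results of these data known. All 9 members were named, with up to 4 peaks each by rank in WT or replicate 1, the 5 genes of lowest mean rank among those with the promoter pattern of Acan, and other genes where a peak reached their promoter. Promoter windows were found for 7 of 9 members. No test was made, because no group had over 2 libraries. Alternatives were windows of 500 bp and 2 kb, the higher-scoring 50% of lists, equal numbers of top peaks (19454 for promoters), reciprocal overlap, narrower flanks, neighbors' promoters left out, each replicate left out and WT as the chondrocyte library. Counts of all 4 overlap comparisons were checked against bedtools 2.31.1, and the overlap and promoter functions were tested on simulated data. The scripts ran in Python 3.11.15 with pandas 2.3.3, numpy 2.4.6, matplotlib 3.10.9 and scipy 1.17.1.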

Additional observations from a re-analysis of the deposited data

How the results depend on the processing

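Of 60 alternatives, 50 gave counts within 1.5 times the reported one or shares within its 95% interval, and 10 moved a value beyond that. Whether any direction reversed was not evaluated. Members marked in chondrocytes and not in fibroblasts numbered 5 to 6 when replicate 1 or replicate 2 was left out, the added gene being Chad. H3K4me2 promoter peaks fell from 8 to 5 members in the higher-scoring 50% of the list and to 2 with equal numbers of top peaks. Replicate 1 peaks without a fibroblast peak made up 68.2% in the higher-scoring 50% and 97.2% without promoters of other genes, where 84.1% is reported. Replicate 1 peaks with H3K4me2 made up 50% at 50% reciprocal overlap, 54.5% in the higher-scoring 50%, 31.8% with equal numbers of top peaks and 86.7% in the gene body and 1 kb on either side. WT peaks without a partner in E160Δ/Δ E308Δ/Δ made up 20% in the higher-scoring 50% and 17.6% with equal numbers of top peaks. Both of these settings remove weak peaks by construction, and the cause of the other shifts was not tested. Shares over the whole lists were not recomputed under any alternative, so these values cannot be set beside the whole-list shares reported above. The start of any transcript and WT as the chondrocyte library at promoters were chosen after seeing the data and moved no count by over 1.5 times. The fibroblast share in gene bodies could not be computed, as no fibroblast peak lay there. No paired analysis was possible because no test was made and only the chondrocyte H3K27ac group had more than 1 library. Depth is unknown, and lists of unequal length limit every statement on an absent peak or on ranks across lists.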
